A study of Mus musculus with 8 samples.

Results

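Microglia are the resident macrophages of the brain, and 34 genes that mark them were followed in the cortex of mice on a normal diet or a high fat diet. The genes were named by symbol by a rule that holds no measured value, although earlier results of these data were known when it was set, and 32 of the 34 were found in a table of 13996 genes. The lineage factor Spi1 and the leukocyte phosphatase Ptprc were not analysed here. The 32 comprised 11 homeostatic genes, 4 complement genes, 12 phagocytic genes and 5 genes of the myeloid lineage. The study asked how a high fat diet alters the cortical transcriptome. Male C57BL/6 mice of 8 weeks received a conventional diet (normal mice, n = 4) or a diet with 60% fat by weight (HFD mice, n = 4) for 8 weeks, and cortexes were taken at 16 weeks. Each mouse gave 1 library of whole cortex, so microglial RNA was measured together with that of neurons, other glia and vessels. Expression is in FPKM (fragment counts normalized for transcript length and mapped reads), as mean ± SD over the 4 mice of a diet.

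In the healthy brain, microglia survey the tissue through purine and chemokine receptors and depend on signals through the receptor Csf1r. Their homeostatic genes encode these receptors and the factors that maintain microglial identity. The complement protein C1q, which microglia supply to the brain, tags synapses and debris. Receptors such as Trem2 and Mertk also act in the uptake of material, and lysosomal proteases digest what is taken up. When microglia respond to damage or lipid load, homeostatic genes typically fall while phagocytic and lipid-handling genes rise.

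In these cortexes, most microglial genes did not pass the test between the diets. Of the 32 genes, 5 passed limma's adjusted threshold of 0.05, with P2ry13, Selplg, Itgam and Mertk higher and Lgmn lower in HFD mice. Among all 13982 genes tested 33.1% passed, 17.7% higher and 15.3% lower, so the share of 15.6% among microglial genes lay below the background. No microglial gene changed by 1.5-fold or more in either direction, whereas 7.13% of all genes passed the threshold with such a change. FPKM values did not overlap between the diets for 5 of the 32 genes, against 31.9% of all genes. The median log2 fold change of the 32 genes was -0.02, beside 0.003 over all genes, and 15 were positive and 17 negative. In bulk cortex, a change in the number of microglia cannot be told apart from a change in RNA per cell.

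**Figure D1:**
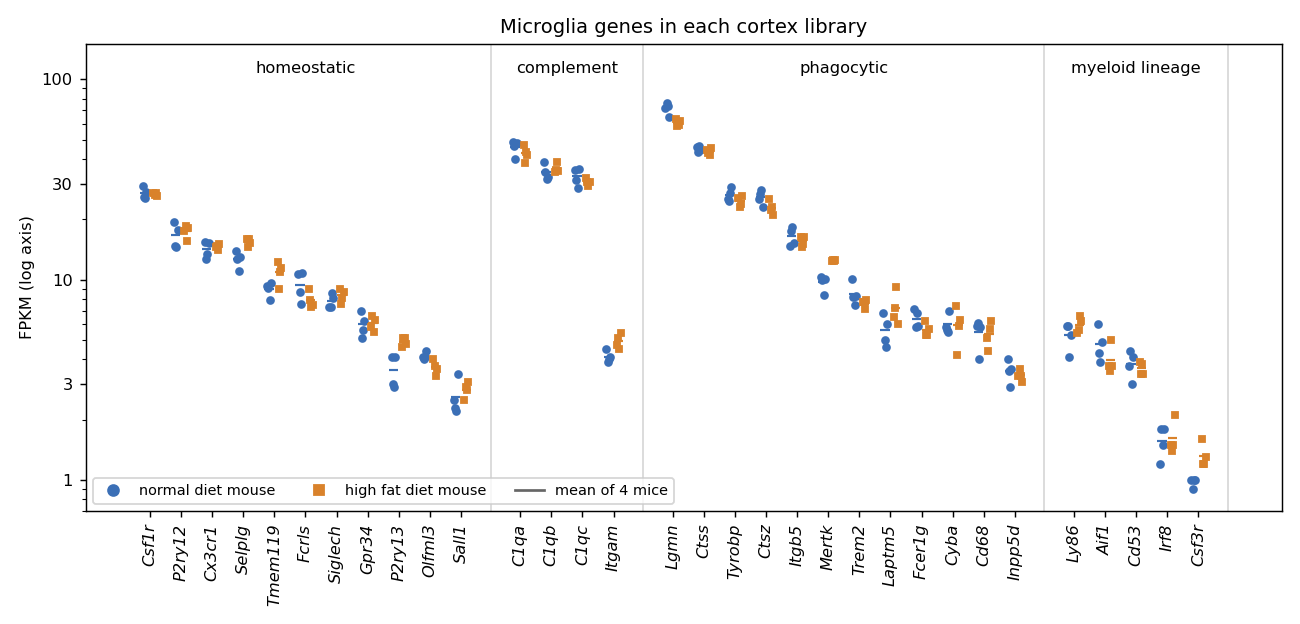
FPKM of the 32 microglia genes (log axis), ordered by level within each functional group. Circles are the 4 normal mice, squares the 4 HFD mice and short lines the mean of 4 mice. The symbols of the diets lie on top of each other for most genes and separate for P2ry13, Selplg, Mertk, Lgmn and Csf3r.

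The libraries differed in markers of brain regions. Of a list of 8 cortical neuron genes 6 were higher in HFD mice, and all 9 striatal genes and all 8 oligodendrocyte genes analysed were lower. The summed FPKM of the 9 striatal genes was 218 to 402 in normal mice and 64.5 to 73.3 in HFD mice, without overlap. The summed FPKM of 6 cerebellar genes was 18.4, 168, 238 and 58.0 in normal mice 1 to 4 and 15.0 to 19.6 in HFD mice. The summed FPKM of 6 choroid plexus genes was 346 to 733 in normal mice and 79.3, 23.0 and 29.0 in HFD mice 1 to 3, but 949.7 in HFD mouse 4, which stood apart from its diet. Without HFD mouse 4, P2ry13, Selplg, Mertk and Lgmn still passed and Itgam did not (limma adjusted p = 0.106 for Itgam). The 4 hemoglobin genes and Alas2, markers of red blood cells, were lower as well (5 of 5), with a summed FPKM of 239 to 480 against 199 to 247. The label of the cells was met, as Cx3cr1, P2ry12, Tmem119, Csf1r and the C1q genes were above 7 FPKM in every library. Markers of border macrophages were low, with 3 of 11 genes analysed at a sum of 4.9 to 7.1 FPKM over all mice, and of 12 blood leukocyte genes only S100a9 was analysed, at 0.5 to 3.0 FPKM. A fit with the cerebellar list as a covariate is given beside each microglial gene that passed. The mean log2 level of that list, relative to the 8 mice, was -0.86 to 3.11 in normal and -1.66 to -1.22 in HFD mice. It was thus tied to diet, and 5.26% of all genes passed in that fit, beside 33.1% without it. A call lost there therefore cannot tell diet from cerebellar content. The part of the striatal, choroid plexus, oligodendrocyte and blood markers in the results was not tested. Diet and striatal content cannot be told apart in these mice.

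PU.1, the product of Spi1, binds purine-rich sites in the promoters of myeloid genes, and the sequence around the start sites was searched for its core. RefSeq windows of 250 bases before to 50 bases after each start, on GRCm38.p6, were given for 27 of the 34 genes. The 7 letters GAGGAAG, on either strand, were found in the windows of 10 of these 27 genes, and in 13.6% of all 32851 windows (15.4% of genes). The shorter GAGGAA, which includes every GAGGAAG, was found for 15 of the 27 genes, and in 28.3% of all windows (31.3% of genes). Of the 5 genes that passed, Itgam and P2ry13 held GAGGAAG, Mertk and Lgmn held neither form, and no window was given for Selplg. The 250 bases before the start of P2ry13 and Itgam are shown because these are the raised genes with the core, with each match to GAGGAA or GAGGAAG on either strand in capitals. They lie at chr3:59210883-59211132 (minus strand) and chr7:128062390-128062639 (plus strand).
P2ry13: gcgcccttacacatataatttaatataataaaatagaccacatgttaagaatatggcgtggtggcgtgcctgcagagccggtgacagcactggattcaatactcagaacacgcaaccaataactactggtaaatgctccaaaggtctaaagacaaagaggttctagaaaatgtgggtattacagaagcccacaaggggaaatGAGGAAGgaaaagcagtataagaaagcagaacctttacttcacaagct
Itgam: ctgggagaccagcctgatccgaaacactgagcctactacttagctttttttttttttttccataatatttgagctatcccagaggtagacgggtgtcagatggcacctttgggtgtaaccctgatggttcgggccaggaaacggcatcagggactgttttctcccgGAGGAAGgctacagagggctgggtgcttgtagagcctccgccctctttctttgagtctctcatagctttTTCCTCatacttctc

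The same core stood before the RefSeq starts of genes that did not pass. It is shown in capitals with 10 bases on each side, on the strand of the gene, for Trem2 (chr17:48346350-48346376), C1qc (chr4:136893092-136893118), Fcrls (chr3:87263652-87263678) and Laptm5 (chr4:130913267-130913293). Counted from the RefSeq start, the match began at -48 in P2ry13, at -84 in Itgam and at -41, -194, -144 and -39 in Trem2, C1qc, Fcrls and Laptm5. By the gene positions of GENCODE M21, Fcrls starts at 87263738 (minus strand) and Laptm5 at 130913125 (plus strand), so both matches lie within the gene. C1qc starts at 136893065 there, nearer to its match. Itgam had a further GAGGAAG after its start, outside the stretch shown. A match of letters is a description of the sequence and does not show that PU.1 binds there.
Trem2: gcctcctttcCTTCCTCcctccctcac
C1qc: acggcagacaCTTCCTCattttggcac
Fcrls: agtctgtaaaGAGGAAGgacgtttgct
Laptm5: cagcctgtggCTTCCTCttttttgttc

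The homeostatic genes were led in level by the receptors that define the cell type. Csf1r, the receptor for the survival factors Csf1 and Il34, was 29.2, 25.8, 25.7 and 27.3 FPKM in normal mice and 27.0, 26.5, 27.0 and 26.1 in HFD mice. Its values overlapped fully, and the log2 fold change was -0.02 (95% interval -0.13 to 0.10, limma adjusted p = 0.817), the narrowest interval among the homeostatic genes. P2ry12, the ADP receptor that guides microglial processes, was 19.5, 14.7, 14.6 and 17.7 in normal mice and 17.4, 18.6, 15.6 and 18.2 in HFD mice, with a log2 fold change of 0.08 (95% interval -0.15 to 0.30). Cx3cr1, the receptor for the neuronal chemokine Cx3cl1, was 15.5, 12.7, 13.5 and 15.2 against 14.5, 14.8, 14.0 and 15.0, a log2 fold change of 0.04 (95% interval -0.12 to 0.20). For both receptors the lower values were those of normal mice 2 and 3, and normal mouse 1 lay above every HFD mouse.

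P2ry13, a second ADP receptor next to P2ry12 on chromosome 3, rose more than any other microglial gene. It was 4.1, 3.0, 2.9 and 4.1 FPKM in normal mice and 4.6, 5.1, 5.1 and 4.8 in HFD mice (3.53 ± 0.665 to 4.90 ± 0.245, n = 4 each). The groups did not overlap, and the log2 fold change was 0.48 (SE 0.13, limma adjusted p = 0.0174), an increase of 39.6%. Normal mice 2 and 3, with the highest cerebellar levels, held the lowest P2ry13. With the cerebellar list as a covariate the log2 fold change was 0.09 (limma adjusted p = 0.737). P2ry13 lies on the minus strand of chromosome 3 of GRCm38 from 59207892 to 59210882, and P2ry12 from 59216272 to 59262871. Both lie within Med12l, a Mediator subunit gene on the opposite strand, which itself rose from 15.4 ± 1.36 to 17.7 ± 0.574 FPKM (log2 fold change 0.20, limma adjusted p = 0.0428). Per mouse, the FPKM ratio of P2ry13 to P2ry12 was 0.211 ± 0.0145 in normal and 0.282 ± 0.0301 in HFD mice (exact permutation p = 0.0286, adjusted p = 0.1 over 7 pairs of genes, n = 4 each). If strand was not used in counting, reads of Med12l and of either receptor cannot be told apart.

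Selplg, the ligand of P-selectin and a gene strongly expressed by microglia, also rose. Its FPKM was 13.9, 12.7, 11.1 and 13 in normal mice and 15.9, 14.5, 15.9 and 15.3 in HFD mice, without overlap. The log2 fold change was 0.28 (SE 0.07, limma adjusted p = 0.0151), an increase of 21.6%, and 0.09 with the cerebellar covariate (limma adjusted p = 0.595). Tmem119, a membrane protein used to tell microglia from other macrophages, was 9.3, 9.1, 7.9 and 9.6 in normal mice and 12.2, 9.0, 10.9 and 11.4 in HFD mice. HFD mouse 2 fell within the normal range, and Tmem119 missed the threshold with a log2 fold change of 0.27 (95% interval 0.05 to 0.49, limma adjusted p = 0.0614). Without that mouse it passed, at 0.36 (limma adjusted p = 0.0183).

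The other homeostatic genes did not pass. Fcrls, a microglial Fc receptor-like gene, and Olfml3, a secreted olfactomedin-like protein, had negative log2 fold changes of -0.24 (95% interval -0.51 to 0.03) and -0.18 (95% interval -0.36 to -0.002), with adjusted p = 0.146 and 0.109 from limma. Siglech, a sialic acid receptor, the lysophosphatidylserine receptor Gpr34 and Sall1, a transcription factor of microglial identity, lay between 0.02 and 0.13. Thus 2 of 11 homeostatic genes were higher and 0 lower by limma, beside 17.7% higher and 15.3% lower of all genes. An unadjusted limma p below 0.05 was found for 4 of the 11, beside 6199 of all 13982 genes. The group ran from -0.24 to 0.48.

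**Figure D2:**
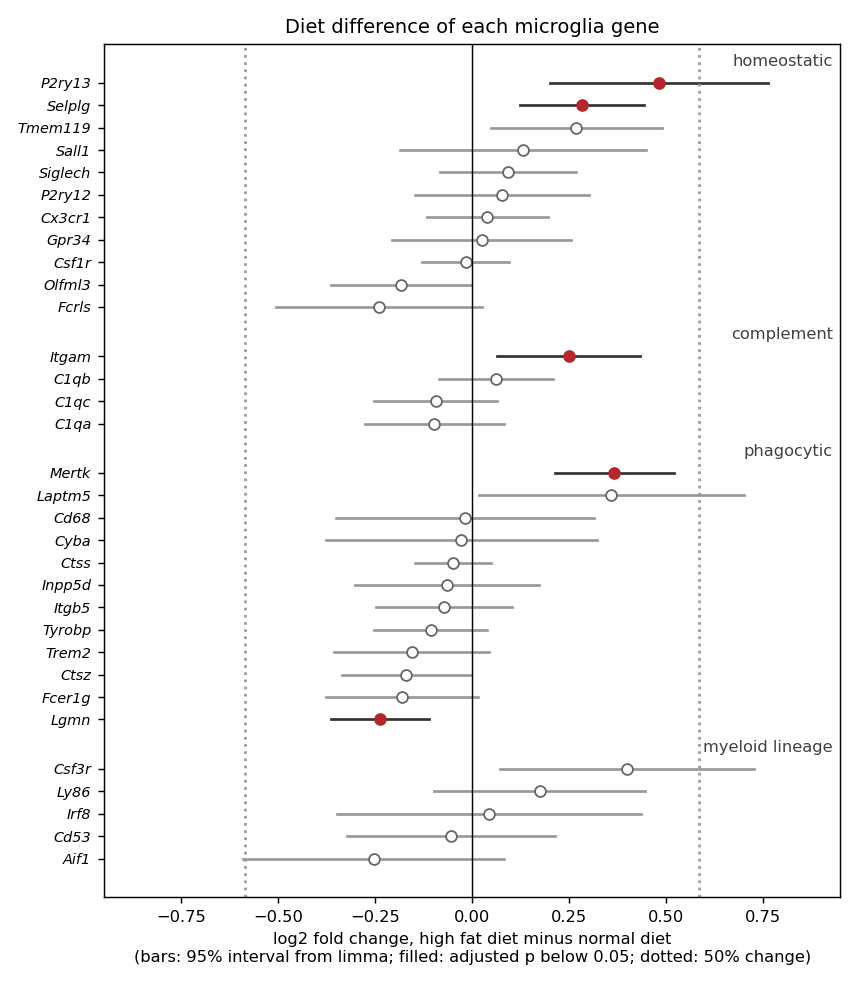
Log2 fold change of each microglia gene, high fat diet minus normal diet, with its 95% interval from limma. Filled points passed the adjusted threshold and dotted lines mark a 1.5-fold change. P2ry13, Selplg, Itgam and Mertk lie right of 0 and Lgmn left of it, and no point lies outside the dotted lines.

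Among the complement genes, the 3 chains of C1q did not pass. The genes of the A, C and B chains follow each other on the minus strand of chromosome 4 of GRCm38, at 136895917 to 136898803, 136889804 to 136893065 and 136880129 to 136886187. C1qa was 48.8, 46.5, 39.8 and 48.0 FPKM in normal mice and 47.1, 38.3, 43.6 and 42.0 in HFD mice. C1qb was 38.6, 34.6, 31.9 and 32.7 against 34.6, 35.4, 38.5 and 35. C1qc was 35.3, 31.6, 28.8 and 35.7 against 32.1, 30.7, 29.2 and 30.7. The values of the diets overlapped for each chain, and normal mouse 3 had the lowest C1q of its diet throughout. The log2 fold changes were -0.10 for C1qa (95% interval -0.28 to 0.08), 0.06 for C1qb (95% interval -0.09 to 0.21) and -0.09 for C1qc (95% interval -0.25 to 0.07), with adjusted p between 0.332 and 0.499 from limma. These intervals leave room for changes of up to 17.5% down for C1qa and 15.5% up for C1qb.

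The chains, which assemble in equal numbers into C1q, were also compared by their ratios, and no ratio passed. Per mouse, the FPKM ratio of C1qa to C1qc was 1.40 ± 0.0539 in normal mice and 1.39 ± 0.112 in HFD mice (exact permutation p = 0.914, two-sided, n = 4 each). The ratio of C1qa to C1qb was 1.33 ± 0.101 against 1.19 ± 0.122 (exact permutation p = 0.143, adjusted p = 0.25 over 7 pairs of genes). All 7 pairs of genes, P2ry13 with P2ry12 included, were chosen after their values were seen, and the smallest p that 4 against 4 mice allow is 0.0286.

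Itgam, the CD11b chain of complement receptor 3, rose slightly. It was 4.5, 3.9, 4.0 and 4.1 FPKM in normal mice and 4.7, 5.1, 4.5 and 5.4 in HFD mice. HFD mouse 3 equalled normal mouse 1, so the groups touched. The log2 fold change was 0.25 (SE 0.08, limma adjusted p = 0.0433), an increase of 18.8%. This call was the least stable of the 5, since only 2 of 8 leave-one-out fits kept it (without normal mouse 1 or HFD mouse 3) and it was lost with the replicate block (limma adjusted p = 0.0884) and with the cerebellar covariate (0.14, limma adjusted p = 0.571). The partner chain Itgb2 was near the lower limit of the filter, at 1.65 FPKM in normal and 1.73 in HFD mice. The ratio of Itgam to Itgb2 was 2.52 ± 0.217 against 2.91 ± 0.572 (exact permutation p = 0.343, n = 4 each). In the annotation, Itgam (chromosome 7 of GRCm38, plus strand, 128062640 to 128118491) shares its strand with the overlapping model Gm49368, which leaves its value uncertain.

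Beyond the members, the complement list of 21 genes gave 13 analysed, of which 4 were higher and 0 lower by limma. The 4 were Csmd1, Sez6, Csmd2 and Susd4, all of them membrane proteins with complement control domains that neurons express. Csmd1 rose from 12.2 ± 1.90 to 19.7 ± 0.548 FPKM (log2 fold change 0.70, SE 0.10, limma adjusted p = 0.00137). Sez6, Csmd2 and Susd4 had log2 fold changes of 0.54, 0.49 and 0.13. The share of 30.8% was near the 33.1% of all genes, and the median log2 fold change of the 13 genes was 0.09. The cortical neuron list had a median of 0.72, and the part of neuronal content in the 4 genes was not tested.

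Among the 12 phagocytic genes, 1 was higher and 1 lower, beside 17.7% higher and 15.3% lower of all genes. Negative log2 fold changes were found for 10 of the 12, beside 6914 of all 13982 genes. The median of the group was small, at -0.07, beside 0.003 over all genes. Mertk, a receptor kinase for engulfment of apoptotic cells and synapses that astrocytes also express, had the lowest adjusted p of all members. It was 10.3, 10, 8.4 and 10.1 FPKM in normal mice and 12.4, 12.6, 12.4 and 12.6 in HFD mice (9.70 ± 0.876 to 12.5 ± 0.115, n = 4 each). The HFD mice were nearly identical and all above the normal mice. The log2 fold change was 0.37 (SE 0.07, limma adjusted p = 0.00424), an increase of 29.0%, and fits without any one mouse gave 0.30 to 0.40. With the cerebellar covariate it was 0.22 (limma adjusted p = 0.213). The related kinase Axl served for comparison, and the ratio of Mertk to Axl was 0.844 ± 0.109 in normal and 1.05 ± 0.0662 in HFD mice (exact permutation p = 0.0286, adjusted p = 0.1 over 7 pairs, n = 4 each). Of 8 astrocyte genes 2 were higher (Slc1a2 and Fgfr3) and 2 lower (Aqp4 and Gfap).

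Lgmn, the lysosomal asparaginyl endopeptidase and the most abundant member, fell. Its FPKM was 71.7, 76.2, 73.4 and 64.8 in normal mice and 63.1, 58.3, 58.9 and 61.9 in HFD mice, without overlap. Normal mouse 4 lay closest to the HFD mice. The log2 fold change was -0.24 (SE 0.06, limma adjusted p = 0.0114), a change of -15.2%, and -0.17 with the cerebellar covariate (limma adjusted p = 0.279). When single mice were dropped it passed in 8 of 8 fits, as did Mertk, P2ry13 and Selplg.

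The receptor complex of Trem2 and its adaptor Tyrobp, which signals lipid and debris contact, did not pass. Trem2 was 10.1, 8.2, 7.5 and 8.3 FPKM in normal mice and 7.7, 7.7, 7.1 and 7.9 in HFD mice, and the log2 fold change of -0.16 (95% interval -0.36 to 0.04, limma adjusted p = 0.202) was -0.07 without normal mouse 1. Tyrobp was 25.4, 24.7, 27.1 and 29.1 against 25.6, 23.0, 23.8 and 26.2, with a log2 fold change of -0.11 (95% interval -0.25 to 0.04, limma adjusted p = 0.229). Trem2 stood at 0.323 ± 0.0554 of Tyrobp in normal mice and 0.309 ± 0.0173 in HFD mice (exact permutation p = 0.743, n = 4 each). Fcer1g, the adaptor of Fc receptors, was at -0.18 (95% interval -0.38 to 0.02), and Inpp5d, a phosphatase that restrains Trem2 signaling, at -0.06 (95% interval -0.30 to 0.17).

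Of the lysosomal and membrane genes, Cd68 was 5.9, 6.1, 4.0 and 5.8 FPKM in normal mice and 5.1, 4.4, 5.7 and 6.2 in HFD mice. This marker of phagocytic lysosomes had a log2 fold change of -0.02, with a wide 95% interval of -0.35 to 0.32. Ctss, a microglial cathepsin, was at 45.1 ± 1.41 and 43.6 ± 1.58 FPKM, with the narrowest interval of the phagocytic genes (log2 fold change -0.05, 95% interval -0.15 to 0.05). Ctsz, another cathepsin, was at -0.17 (limma adjusted p = 0.103), and passed without normal mouse 4, at -0.22 (limma adjusted p = 0.036). Laptm5, a lysosomal membrane protein, was 6.8, 5.0, 4.6 and 6.0 against 6.5, 7.2, 9.2 and 6.0. Its log2 fold change of 0.36 (95% interval 0.02 to 0.70, limma adjusted p = 0.0976) came with overlapping groups. It was 0.24 without HFD mouse 3 and passed at 0.46 without normal mouse 1 (limma adjusted p = 0.0452). Itgb5, an integrin chain, and Cyba, a subunit of the NADPH oxidase, were at -0.07 and -0.03.

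In the myeloid lineage group, 0 of 5 genes passed limma's threshold, beside 33.1% of all genes. An unadjusted limma p below 0.05 was found for 1 of the 5, beside 6199 of all 13982 genes. Csf3r, the receptor for granulocyte colony stimulating factor, was 1.0, 0.9, 1.0 and 1.0 FPKM in normal mice and 1.6, 1.2, 1.2 and 1.3 in HFD mice. The groups did not overlap, but rounding to 0.1 is coarse at this level. The mean of the normal mice lay below the filter of 1 FPKM, so Csf3r was tested only because its HFD values were higher. This selection limits what the separation of the groups can show. The log2 fold change of Csf3r was 0.40, with limma adjusted p = 0.0614. It passed when no variance trend was used (limma adjusted p = 0.0149). Aif1, the gene of the microglial stain Iba1, was 6.0, 4.3, 3.9 and 4.9 against 3.7, 3.5, 5.0 and 3.7, a log2 fold change of -0.25 (95% interval -0.59 to 0.08, limma adjusted p = 0.218). Ly86, Cd53 and the interferon regulatory factor Irf8 were at 0.17, -0.06 and 0.04, and Irf8 had only 1.58 ± 0.287 and 1.63 ± 0.32 FPKM. In the annotation 11 of the 32 members overlap another gene, and their values are uncertain to that extent. Among them, Irf8 overlaps Gm20388 on the same strand and Cyba overlaps it on the opposite strand. Gm20388 fell (log2 fold change -0.77, limma adjusted p = 0.00167). Ctsz overlaps Nelfcd on the opposite strand, which rose (log2 fold change 0.16, limma adjusted p = 0.0422). Cx3cr1 overlaps 9 genes, of which Csrnp1, on the same strand, fell (log2 fold change -0.35, limma adjusted p = 0.0224). Mertk overlaps Gm14011 on the opposite strand and Gm23172 on the same strand.

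The normal mice differed among themselves in their microglial genes. For each gene the log2 value in a mouse was taken relative to its mean over the 8 mice, and these were averaged over a group of genes. The homeostatic group stood at 0.06, -0.15, -0.17 and 0.08 in normal mice 1 to 4 and at 0.08, 0.03, -0.003 and 0.07 in HFD mice. Normal mice 1 and 4 were thus level with the HFD mice, and normal mice 2 and 3 were lower. The same mice were lowest for the cortical neuron list (-0.56 and -0.73, against -0.09 and -0.02 in normal mice 1 and 4) and highest for the cerebellar list. The phagocytic group stood between -0.06 and 0.09 in normal mice and between -0.10 and 0.04 in HFD mice. Normal mouse 3 had the lowest value of its diet for 19 of the 32 members and normal mouse 1 the highest for 17. With the cerebellar list as a covariate 1 of 32 members passed, Fcrls, which was lower (-0.59, limma adjusted p = 0.047), while 5.26% of all genes passed in that fit.

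**Figure D3:**
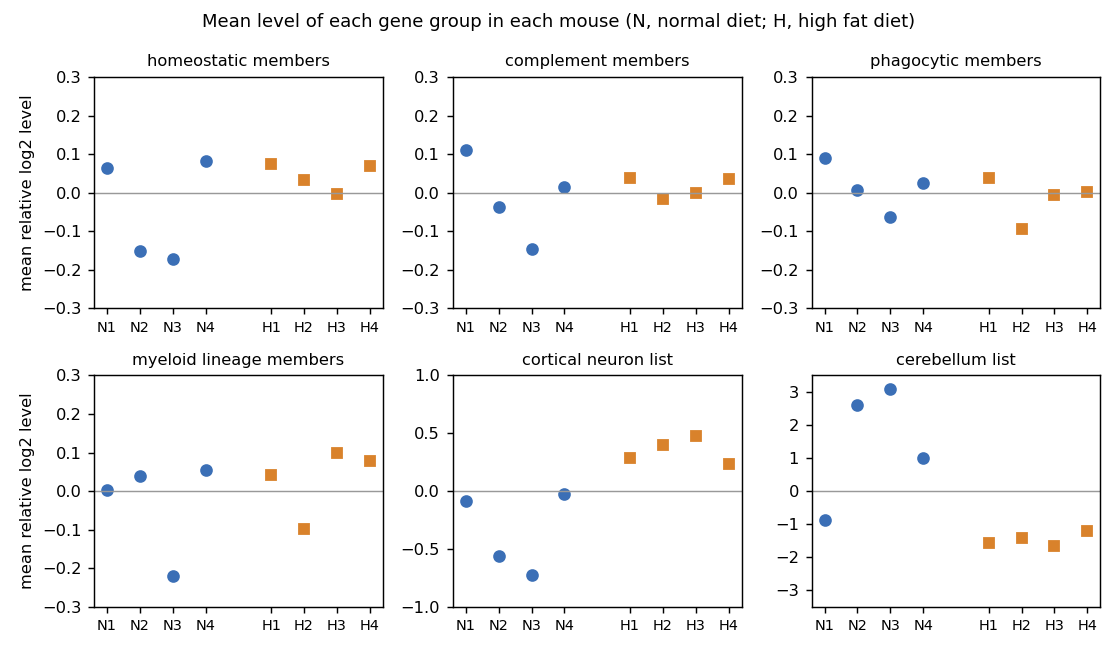
Mean relative log2 level of 4 groups of microglia genes, of the cortical neuron list and of the cerebellum list in each mouse (N1 to N4, normal mice; H1 to H4, HFD mice). The vertical axes differ in range, from 0.3 for the microglia groups to 3.5 for the cerebellum list. Normal mice 2 and 3 lie low for the homeostatic group and the cortical neuron list and high for the cerebellum list.

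Wider lists of microglial and neuroinflammatory genes gave few calls beside the 33.1% of all genes that passed, with 1 exception. Of 32 other microglial genes 22 were analysed, and the gene that was lower was Tgfbr1, the receptor for TGF-beta, which other brain cells also express. It fell from 9.15 ± 0.443 to 7.38 ± 0.69 FPKM (log2 fold change -0.31, limma adjusted p = 0.0134). Of 12 genes of Trem2 and Tyrobp signaling 6 were analysed and only Fyn, a kinase that neurons and oligodendrocytes share, was lower (log2 fold change -0.19, limma adjusted p = 0.0147).

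The exception was the list of genes raised in damage-associated microglia, in which 14 of 20 genes were analysed, 7 were lower and 1 higher. The share that passed was 57.1%, beside 33.1% of all genes (15.3% lower and 17.7% higher). The median log2 fold change was -0.23, beside 0.003 over all genes. Lpl, lipoprotein lipase, fell from 3.98 ± 0.556 to 2.23 ± 0.472 FPKM (log2 fold change -0.82, limma adjusted p = 0.00397). The tetraspanins Cd9 and Cd63, at -0.39 each, and the cathepsin Ctsl, at -0.31, were lower too, as were Ctsb, Ctsd and B2m, at -0.20 to -0.23. Timp2, an inhibitor of metalloproteinases, was higher (0.60, limma adjusted p = 0.000775). Only Lpl and Timp2 passed 1.5-fold. Several of these genes are abundant in neurons, astrocytes or oligodendrocytes, and the oligodendrocyte list fell in the same mice with a median of -0.87. The part of these cells in the result was not tested. Cst7, Itgax and Clec7a, which define the damage-associated state, were not analysed here.

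**Figure D4:**
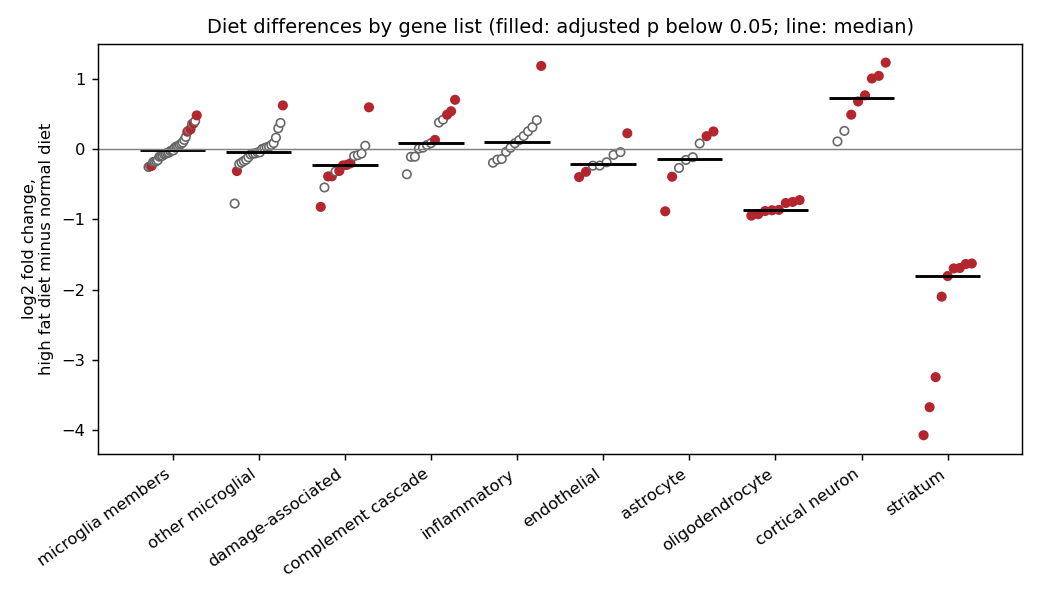
Log2 fold change, high fat diet minus normal diet, of each gene in 10 lists. Filled points passed the adjusted threshold and lines are medians. The microglia members (median -0.02) lie close to 0, while the oligodendrocyte (-0.87) and striatum (-1.81) lists lie below and the cortical neuron list (0.72) above.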

How the data were processed

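Total RNA of 1 cortex per mouse was depleted of rRNA and sequenced, with 4 mice per diet. Per the methods of the study, the authors used Trimmomatic for trimming, STAR for alignment to mm10 and Cuffnorm for FPKM on GENCODE release M17. Tool versions, and whether counting used strand, are not stated in what was read here. The deposited FPKM values are normalized for transcript length and depth and rounded to 0.1. The depth per mouse is therefore unknown.

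From these values, log2(FPKM + 0.1) was compared between diets with limma 3.58.1 in R 4.3.3 (two-sided, variance trend), with Benjamini-Hochberg adjustment over the 13982 genes averaging 1 FPKM or more without a value of 0. Standard errors and 95% intervals come from the same fit. No covariate was used. Ratios between genes were compared by exact permutation over 70 assignments of the mice. Python 3.11.15, pandas 2.3.3, numpy 2.4.6, scipy 1.17.1 and matplotlib 3.10.9 made the tables and plots. The fit was tested on simulated data. The alternatives were another added constant, other filters, 2 rescalings, a fit lacking the variance trend, a replicate block, a cerebellum covariate and each mouse left out in turn.

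Members were matched by symbol. Values per mouse are given for each member past the threshold, for the 6 largest fold changes and for 10 defining genes. The other lists are named by their genes past the threshold, and 2 of their genes were matched by Ensembl ID. Members and lists were chosen with earlier results of these data known. Gene positions were read from GENCODE M21 (GRCm38), a later release than M17. A result for 1 of the other microglial genes is not reported here.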

Additional observations from a re-analysis of the deposited data

Results flagged for a closer look

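Of 64 sets of 4 mice (32 genes in each diet), 5 held a mouse far from the other 3, and chance flags about 1 in 20. Mertk in normal mouse 3 was 8.4 FPKM, against 10 to 10.3 in the other normal mice. Cd68 in the same mouse was 4.0 FPKM, against 5.8 to 6.1. Irf8 in HFD mouse 4 was 2.1 FPKM, against 1.4 to 1.5, and Aif1 in HFD mouse 3 was 5.0 FPKM, against 3.5 to 3.7. Csf3r in normal mouse 2 was 0.9 FPKM where the others held 1.0, a gap of 1 rounding step.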

How the results depend on the processing

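The number of members called was 5 with an added constant of 1, without a filter and with median-ratio rescaling, 4 with quantile normalization, and 6 without a variance trend. With a mean FPKM of at least 5 it was 3 (2 higher) of 23 members tested, since P2ry13 and Itgam lay below that level. With the cerebellum list as a covariate it was 1 (0 higher, and 1 with a 1.5-fold change). With the replicate block it was 4. With each mouse left out it lay between 4 and 6, with 3 to 5 higher and 1 to 2 lower. The 2 lower calls came without normal mouse 3 (Fcrls added) or 4 (Ctsz added). Relative to the microglial mean of each mouse, an alternative chosen after seeing the data, 4 passed. The lost call was Itgam in quantile normalization, the block and this alternative, with adjusted p from limma of 0.0588, 0.0884 and 0.117. Whether the replicate numbers pair the mice is not known from the labels. Deviations of same-numbered mice correlated at -0.109 to -0.0275, which shows no pairing but cannot exclude one.

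Directions turned only for members that did not pass. With the cerebellum covariate the log2 fold changes were -0.15 for Cx3cr1, -0.23 for P2ry12, -0.25 for Gpr34, -0.038 for Sall1, -0.10 for C1qb, 0.16 for Itgb5, -0.075 for Laptm5 and -0.06 for Ly86. Irf8 was -0.008 after quantile normalization and Gpr34 -0.008 relative to the microglial mean. With each mouse left out, Cx3cr1 ranged from -0.013 to 0.082, Csf1r from -0.04 to 0.021, Gpr34 from -0.048 to 0.10, Inpp5d from -0.15 to 0.001, Cd68 from -0.16 to 0.07, Cyba from -0.14 to 0.127, Irf8 from -0.08 to 0.11 and Cd53 from -0.16 to 0.018. The cause of these shifts was not tested. Rounding to 0.1 FPKM limits Csf3r, Irf8 and Sall1, and the depth is unknown.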

Other observations

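Of 9 ligands of microglial receptors 8 were analysed, and 0 passed limma's threshold, beside 33.1% of all genes. An unadjusted limma p below 0.05 was found for 2 of the 8, beside 6199 of all 13982 genes. Cx3cl1, the ligand of Cx3cr1, was the most abundant at 178 FPKM in normal and 203 in HFD mice (log2 fold change 0.20, limma adjusted p = 0.228). Il34 and Csf1, the ligands of Csf1r, had log2 fold changes of 0.15 and -0.10. Cd47, a signal against engulfment, was at 0.21 (limma adjusted p = 0.0659).

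Of 26 inflammatory genes 12 were analysed, and 1 passed (8.33%, beside 33.1% of all genes). Casp1, the protease of the inflammasome, was 0.8, 1.1, 1.2 and 1.6 FPKM in normal mice and 3.3, 2.8, 1.8 and 3.3 in HFD mice (log2 fold change 1.18, SE 0.24, limma adjusted p = 0.00558). Its lowest HFD value, 1.8, lay next to the highest normal value, 1.6, and rounding to 0.1 is coarse at the level of the normal mice. Il18, a cytokine that Casp1 processes, was at -0.15 (limma adjusted p = 0.399), and the antigen presentation genes Cd74, H2-Aa and H2-Ab1 were at 0.31, 0.41 and 0.25, none of them past the threshold.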
